A study of Mus musculus with 4 samples.

Results

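The genes described here are 77 of the 49997 gene symbols in the deposited tables. They are those with at least a 4-fold lower level in iMOP-derived neurons than in proliferating iMOP cells in each of the replicate pairs, after 17 genes were set aside by name. The choice used the raw counts without the 18S ribosomal RNA row Rn18s-rs5, scaled by the library total to counts-per-million values (CPM) and taken as log2(CPM + 0.5). A gene was kept with a mean count of at least 10 over the 4 libraries and a neuron minus proliferating difference of -2 or less in replicate pair 1 and in replicate pair 2. Of 12392 genes with that mean count, 90 met both limits, which is 0.726%, and 21 were higher by the same margin in both pairs (0.169%). Among the 17 genes set aside, 13 met both limits and 4 did not. All 4 libraries were used in the choice, so every difference between the groups given below describes the chosen genes and none of it is a test.

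Both groups were wild-type cultures of iMOP cells, a mouse line of immortalized multipotent progenitors of the inner ear, so all libraries share 1 cell line. Proliferating cultures were kept in DMEM/F12 with B27, carbenicillin and 20 ng/ml of basic FGF. The neurons grew in Neurobasal medium with N21, L-glutamine and the CDK2 inhibitor K03861 at 1 µM, so medium, growth factor and inhibitor changed together and cannot be told apart. Total RNA was depleted of ribosomal RNA and sequenced as stranded libraries, 2 for each group, and both replicate 2 titles carry the words set 2, whose meaning is not stated. The titles name the replicates of each group as biological, without saying what separated them.

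Basic FGF keeps otic and neural progenitors dividing by activating receptor tyrosine kinases and the ERK cascade. ERK signalling switches on immediate early genes such as Fos and the Egr family within a short time of stimulation, and their products in turn bind AP-1 and EGR sites at other genes. Progenitors and glia also surround themselves with a matrix of proteoglycans and collagens that proteases and their inhibitors remodel. Withdrawal of mitogen is a usual way to let such cells leave the cycle and become neurons.

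Without the 18S row the libraries held 2595578 to 3850766 counts. Proliferating replicate 2 stood apart from the other libraries, with 17761 genes at 1 count or more against 20011 to 21636 in the rest. A gene listed at 0 had 0 counts in that library. Its expected count could still be up to about 3, which is 0.779 to 1.16 CPM depending on the library. The labelled cell state was checked against 15 neuronal marker genes, whose summed level was 604 and 1021 CPM in the proliferating libraries and 632 and 1081 CPM in the neuron libraries, so the groups overlapped on it. The proliferation marker Mki67 had 1133 and 81 counts in the proliferating libraries and 1408 and 459 in the neuron libraries. These are 326 and 31.2 CPM against 366 and 133 CPM. Mki67 was thus higher in neurons in both pairs, by 0.165 and 2.07 in log2, opposite to the labels, though the groups overlapped. The group names used here are those of the labels.

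The 77 genes together took 0.228% and 0.354% of counts in the proliferating libraries and 0.0370% and 0.0404% in the neuron libraries. The median gene of the set had 44 and 41 counts in proliferating cells but 6 and 5 in neurons. The median difference was -2.62 in pair 1 and -2.81 in pair 2 on the log2(CPM + 0.5) scale, against -0.19 and 0.055 over all 12392 genes. Pair 1 alone had 3.07% of all genes at -2 or less and pair 2 alone 2.37%. For all 77, both proliferating libraries lay above both neuron libraries, an order found for 21.9% of the 12392 genes. A larger difference in pair 2 was seen for 48 genes and a larger one in pair 1 for 29. In 7 of the 77 the difference was -3 or less in both pairs, while in 31 the weaker pair lay within 0.25 of the limit.

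**Figure D1:**
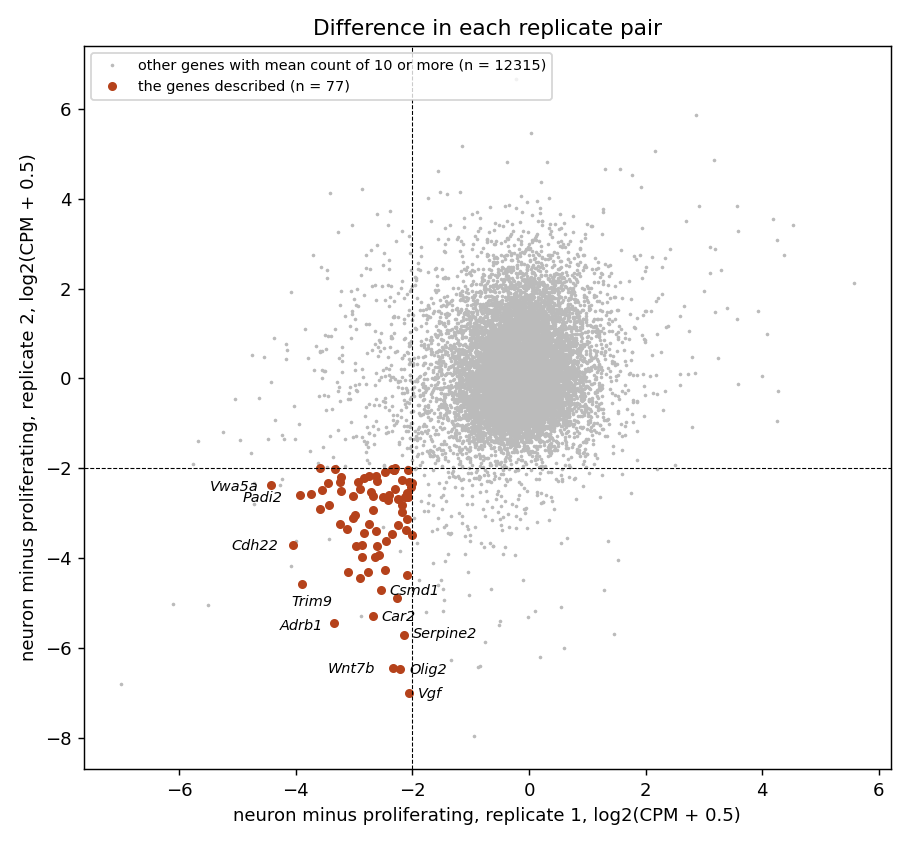
Neuron minus proliferating difference on the log2(CPM + 0.5) scale in replicate pair 1 (x axis) and pair 2 (y axis) for 12392 genes with a mean count of 10 or more. Red points are the 77 genes described, dashed lines mark -2, and grey points inside the lower left quadrant are genes set aside by name; Vgf, Olig2 and Wnt7b lie below -6 in pair 2 while staying above -2.5 in pair 1.

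The most abundant members per length of transcript were Cst3, Ncan and Vgf. Cst3, which encodes the secreted cysteine protease inhibitor cystatin C, had 159 CPM per kilobase of exon in proliferating cells and 20.4 in neurons. Ncan, the core protein of the neural proteoglycan neurocan, had 81.2 and 18.2 on the same scale. The level of Vgf, 80.6 CPM per kilobase in proliferating cells and 0.796 in neurons, came almost wholly from proliferating replicate 2. Among the 76 members with a length in the annotation, Olig2, Ccn1 and Ndrg2 followed, at 36.6, 25.8 and 19.5 CPM per kilobase in proliferating cells. The Olig2 level also came mostly from proliferating replicate 2, with 171 CPM there and 13.8 CPM in replicate 1.

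**Figure D2:**
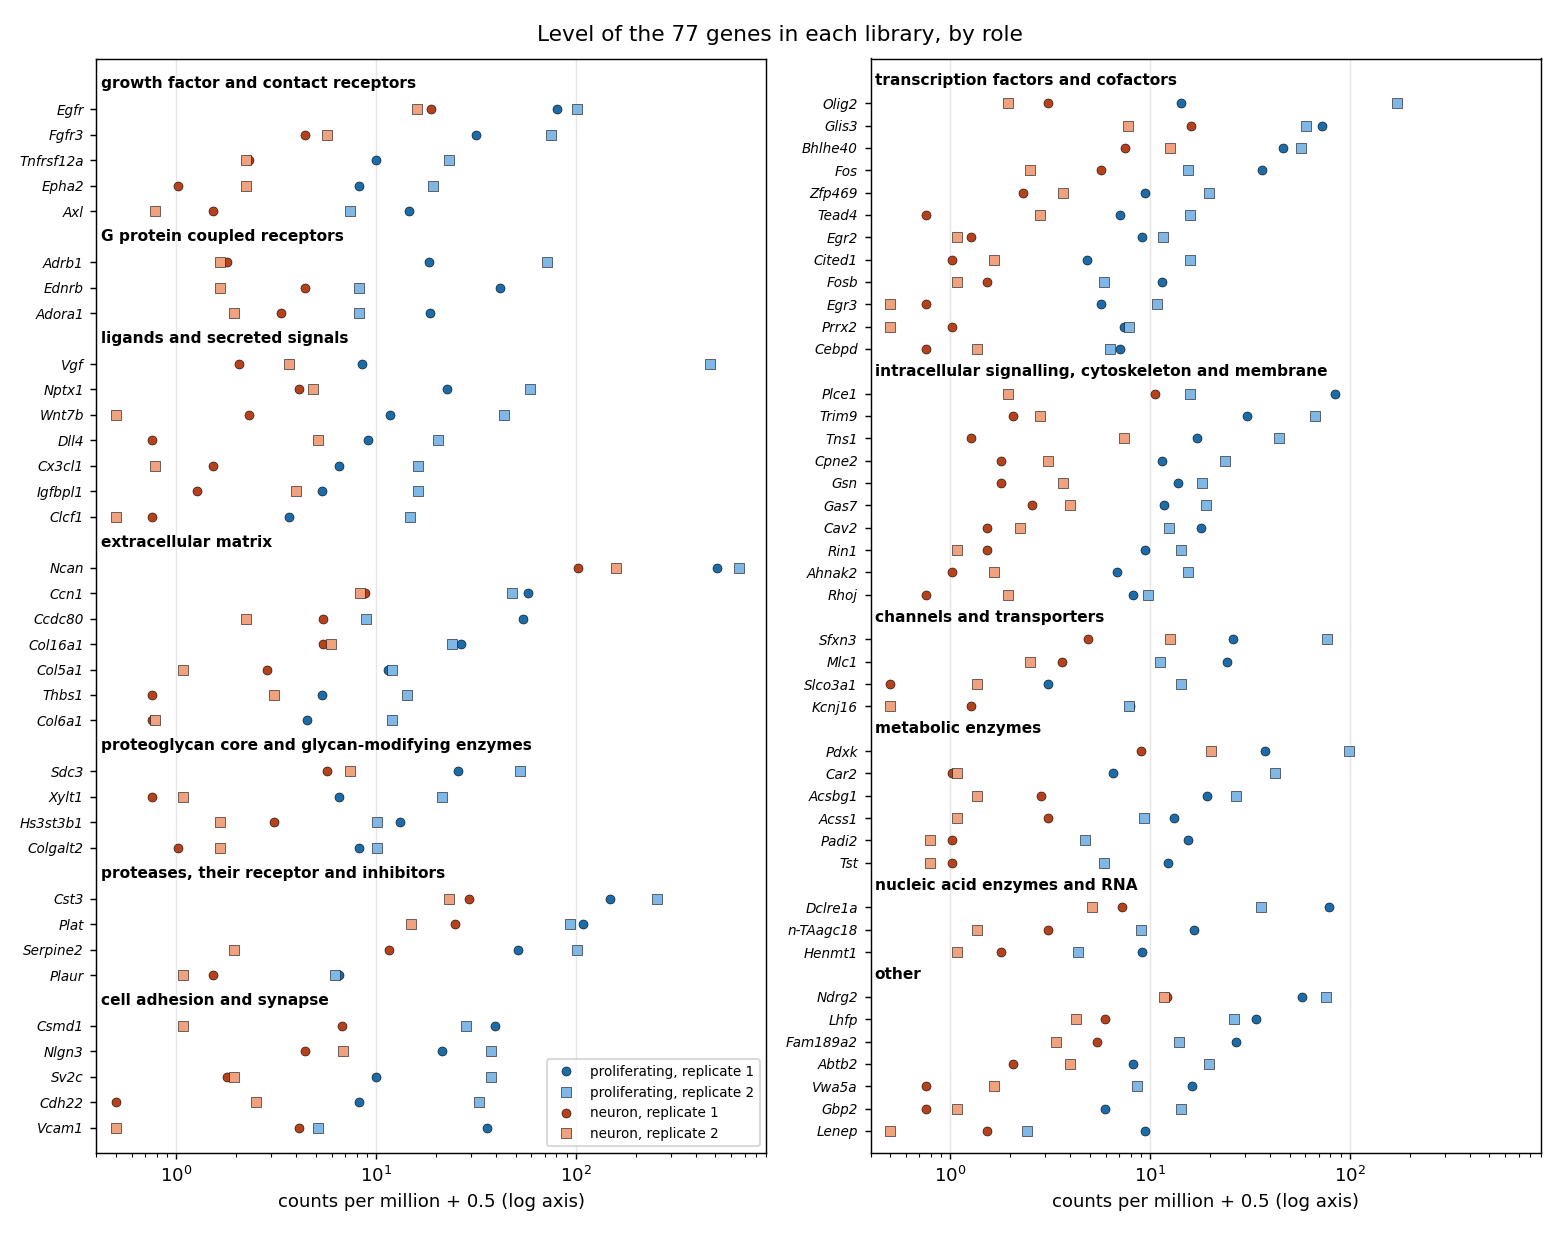
Level of each of the 77 genes in each library as CPM + 0.5 on a log axis, grouped by role; blue marks are proliferating and red marks neuron libraries, circles replicate 1 and squares replicate 2. The proliferating marks lie to the right of the neuron marks in every row, and their distance from each other is widest for Vgf and Olig2.

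Receptors that sense growth factors and neighbouring cells formed a group of 5. Below, counts follow the order proliferating replicate 1, proliferating replicate 2, neuron replicate 1 and neuron replicate 2. Egfr, the receptor of epidermal growth factor, had 277, 261, 71 and 54 counts. Proliferating libraries averaged 90.1 ± 14.7 CPM and neuron libraries 17.02 ± 2.01 CPM (SD, n = 2 each), so the replicates of each group lay close together. Fgfr3, an FGF receptor and also a marker of astrocyte precursors, had 109, 193, 15 and 18 counts, or 52.9 ± 30.4 CPM against 4.55 ± 0.923 CPM (SD, n = 2 each). The TAM family kinase Axl had 49, 18, 4 and 1 counts, with differences of -3.25 and -3.24 in pairs 1 and 2. The ephrin receptor Epha2, a known ERK target, had 27, 49, 2 and 6 counts, with differences of -3.02 and -3.12. These 2 receptors showed nearly the same log2 difference in both pairs, while their proliferating replicates were ordered oppositely. Tnfrsf12a, the receptor of the cytokine TWEAK, had 33, 59, 7 and 6 counts.

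Other receptors of the class were compared through a list. Of 41 receptor tyrosine kinase and phosphatase genes in a list, 33 had the mean count and 6 met the rule, which 0.726% of all genes did, 4 of them among the 77 and Ntrk2 and Ptprz1 set aside. The list's median difference was -0.65 in pair 1 and 0.052 in pair 2, and 14 of the 33 genes were lower and 4 higher in both pairs, where 31.9% and 20.8% of all 12392 genes were. Fgfr1, the main receptor of basic FGF in many progenitors, had 268, 281, 293 and 142 counts, with levels of 77.1 and 76.1 CPM in pair 1 and 108 and 41.0 CPM in pair 2. Its difference was thus -0.02 in pair 1 and -1.39 in pair 2. Kit, the stem cell factor receptor, had 146, 180, 190 and 410 counts and was higher in neurons in both pairs, with groups that overlapped in CPM.

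Adrb1, which encodes the beta-1 adrenergic receptor, stood out among the G protein coupled receptors. It had 62, 185, 5 and 4 counts, a difference of -3.35 in pair 1 and -5.44 in pair 2. Its 2 neuron libraries were alike at 1.23 ± 0.101 CPM, whereas the proliferating libraries spread to 44.6 ± 37.8 CPM (SD, n = 2 each). The endothelin receptor Ednrb, present in neural crest and astrocytes, had 143, 20, 15 and 4 counts and was thus mostly a proliferating replicate 1 transcript. Adora1, the A1 adenosine receptor, had 63, 20, 11 and 5 counts. Of the exon bases of Adora1, 20.1% lie opposite the gene Mybph, which had 3, 2, 1 and 0 counts.

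Ligands and secreted signals were the group in which pair 2 differed most, with a median of -2.27 in pair 1 and -4.37 in pair 2. All 7 had a higher level in proliferating replicate 2 than in proliferating replicate 1. Vgf, a secreted neuropeptide precursor induced by neurotrophins, had 28, 1223, 6 and 11 counts. Wnt7b, a WNT ligand, had 39, 112, 7 and 0 counts. Nptx1, a secreted pentraxin that clusters glutamate receptors, had 77, 152, 14 and 15 counts, so its neuron libraries agreed at 3.98 ± 0.493 CPM (SD, n = 2). The Notch ligand Dll4 had 30, 52, 1 and 16 counts, and its pair 2 difference of -2.003 lay at the edge of the limit. Clcf1, a cytokine of the interleukin 6 family, had 11, 37, 1 and 0 counts, a ratio of 57.8 between the summed levels with a 95% exact (Clopper-Pearson) counting interval of 9.89 to 2331. The chemokine Cx3cl1 had 21, 41, 4 and 1 counts, and Igfbpl1, an insulin-like growth factor binding protein relative, had 17, 41, 3 and 12. Such intervals cover counting error only and do not cover the spread between replicates.

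Among 49 growth factor and cytokine genes in a list, 14 had the mean count and only Wnt7b met the rule, which 0.726% of all genes did. Of these 14, 8 were lower and 1 was higher in both pairs, where 31.9% and 20.8% of all 12392 genes were. The list medians were -0.76 and -0.50.

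Extracellular matrix genes gave the largest share of the members' counts. Ncan had 1776, 1707, 392 and 552 counts, or 584 ± 104 CPM against 131 ± 40.8 CPM (SD, n = 2 each). Its differences of -2.32 and -2.04 were among the smaller ones of the 77, and they rest on the highest counts. Ccn1, a matricellular protein induced as an immediate early gene, had 198, 123, 32 and 27 counts. The libraries of each group were close, at 52.2 ± 6.78 CPM against 8.06 ± 0.361 CPM (SD, n = 2 each). The secreted matrix protein gene Ccdc80 had 188, 22, 19 and 6 counts, and its proliferating replicate 2 lay much nearer to the neuron libraries than replicate 1 did.

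The collagen genes in the group encode fibril-forming, microfibril-forming and fibril-associated chains. Col5a1 had 38, 30, 9 and 2 counts. Col6a1 had 14, 30, 1 and 1 counts, a ratio of 26.5 with a 95% exact counting interval of 6.91 to 226. Col16a1 had 91, 61, 19 and 19 counts, and its pair 2 difference of -2.003 was the nearest inside the limit. Thbs1, encoding the matricellular glycoprotein thrombospondin 1, had 17, 36, 1 and 9 counts. In a list of 48 matrix genes, 30 had the mean count, 5 met the rule and all 5 are among the 77. In both pairs 15 of the 30 were lower and 5 higher, where 31.9% and 20.8% of all 12392 genes were. The list medians were -1.07 and -0.34, and the rule was met by 0.726% of all genes. The basement membrane collagens Col4a1 (60, 63, 177 and 295 counts) and Col4a2 (40, 13, 95 and 199 counts) lay on the other side, higher in both neuron libraries, so the matrix genes did not share 1 direction.

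Enzymes and core proteins of proteoglycans formed a related group of 4. Xylt1 starts the sugar chain on proteoglycan core proteins, and it had 21, 54, 1 and 2 counts. The ratio of its summed levels was 30.1 with a 95% exact counting interval of 9.92 to 149. Hs3st3b1, a sulfotransferase acting on heparan sulfate, had 44, 25, 10 and 4 counts, and Colgalt2, which puts galactose on collagen, had 27, 25, 2 and 4. The heparan sulfate proteoglycan Sdc3, a syndecan of neural tissue, had 88, 135, 20 and 24 counts. Both neuron libraries of Sdc3 were close, at 6.06 ± 1.23 CPM (SD, n = 2).

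Proteases of the plasminogen system, their receptor and inhibitors were present as Plat, Plaur and Serpine2, with Cst3 as the inhibitor of cysteine proteases. Plat, tissue plasminogen activator, had 378, 241, 94 and 50 counts, or 101 ± 11.3 CPM and 19.4 ± 7.05 CPM (SD, n = 2 each). Serpine2, an inhibitor of thrombin and plasminogen activators secreted by glia, had 177, 262, 43 and 5 counts, so its 2 neuron libraries were far apart and its differences were -2.14 and -5.71. Cst3 had 516, 662, 111 and 79 counts, or 202 ± 75.3 CPM against 25.8 ± 4.24 CPM (SD, n = 2 each). The urokinase receptor Plaur had 21, 15, 4 and 2 counts, while Plau, the urokinase gene itself, was listed at 0 in all 4 libraries. Of 26 genes of proteases, inhibitors and sulfatases in a list, 17 had the mean count and 4 met the rule, Sulf2 being the one set aside. The list had 10 genes lower and 2 higher in both pairs, where 31.9% and 20.8% of all 12392 genes were. Its medians were -1.26 and -1.22, and the rule was met by 0.726% of all genes.

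Cell adhesion and synaptic proteins were lower by the rule in 5 genes. Vcam1, an adhesion molecule of the immunoglobulin family, had 123, 12, 14 and 0 counts. Proliferating replicate 2 and neuron replicate 1 were thus almost level at this gene, at 4.62 and 3.64 CPM. Cdh22, a type II cadherin, had 27, 84, 0 and 7 counts, with differences of -4.05 and -3.70. Nlgn3, a postsynaptic neuroligin, had 73, 96, 15 and 22 counts, and 41.2% of its exon bases are shared with an annotated transcript on the same strand, so reads there are of uncertain origin. Sv2c, a synaptic vesicle glycoprotein, had 33, 96, 5 and 5 counts, and its neuron libraries agreed at 1.37 ± 0.103 CPM (SD, n = 2). Csmd1, a large transmembrane complement control protein, had 135, 72, 24 and 2 counts.

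Transcription factors and cofactors were the largest role group, with 12 members. The immediate early factors Fos (124, 39, 20 and 7 counts) and Fosb (38, 14, 4 and 2) encode subunits of AP-1. Fos differed by -2.67 in pair 1 and -2.62 in pair 2, and Fosb by -2.89 and -2.45. Egr2 and Egr3 are zinc finger factors of the same family as Egr1. Egr2 had 30, 29, 3 and 2 counts and thus nearly equal replicates, at 9.90 ± 1.80 CPM and 0.678 ± 0.142 CPM (SD, n = 2 each). Egr3 had 18, 27, 1 and 0 counts, a ratio of 54.2 with a 95% exact counting interval of 9.25 to 2188.

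The wider immediate early list held further genes that were lower in neurons. It held 29 symbols, of which 27 occur in the data. Of these, 20 had the mean count and 6 met the rule: Egr1, which was set aside, and Egr2, Egr3, Fos, Fosb and Ccn1. Lower in both pairs were 15 of the 20, and 0 were higher in both, where 31.9% and 20.8% of all 12392 genes were. The list medians were -1.57 and -2.39, and the rule was met by 0.726% of all genes. Jun, the partner of FOS in AP-1, had 234, 485, 81 and 90 counts. Junb had 125, 77, 40 and 43 counts and Ier2 had 151, 132, 50 and 52, each lower in both neuron libraries by less than the limit. Btg2, an antiproliferative immediate early gene, had 122, 169, 259 and 221 counts, a difference of 0.93 in pair 1 and -0.03 in pair 2.

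Lineage factors in the group included Olig2, the factor of motor neuron and oligodendrocyte precursors. Olig2 had 48, 445, 10 and 5 counts, so its difference was -2.21 in pair 1 and -6.47 in pair 2. Glis3, a Krüppel-like zinc finger factor, had 250, 155, 60 and 25 counts. Bhlhe40, a stress- and clock-responsive repressor, had 159, 146, 27 and 42 counts, or 51.0 ± 7.42 CPM and 9.57 ± 3.62 CPM (SD, n = 2 each). Of the others, Tead4 is a DNA-binding partner of the Hippo effectors YAP and TAZ, Cebpd a C/EBP factor of acute-phase and glial genes, Prrx2 a mesenchymal homeobox factor, Cited1 a CBP/p300 binding cofactor, and Zfp469 a zinc finger protein. These 5 had 15 to 50 counts in the proliferating libraries and 0 to 11 in the neuron libraries. In a list of 57 factors of glia and progenitors, 38 had the mean count. Olig2 and the set-aside Olig1 met the rule, which 0.726% of all genes did. In both pairs 14 of the 38 were lower and 10 higher, where 31.9% and 20.8% of all 12392 genes were. The list medians were -0.022 and -0.30.

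Since AP-1 and EGR genes were among the members, the 250 bases before each transcript start were searched on both strands in the RefSeq promoters of GRCm38.p6. The AP-1 site was among the motifs searched, whereas the EGR site was not. RefSeq promoters were found for 53 of the 77 genes, 68 promoters in all. The AP-1 heptamer TGACTCA, or TGAGTCA on the other strand, was found in 5 of the 68 (7.35%), compared with 2.87% of 11762 promoters of genes with the mean count and 4.46% of all 32851 promoters. The genes were Plaur, Cav2, Gbp2, Col6a1 and Lenep. The first 3 are shown to let the match be seen in its surroundings, 5′ to 3′ on the gene's strand with the AP-1 heptamer in capitals.
Plaur, chr7:24462384-24462450, plus strand: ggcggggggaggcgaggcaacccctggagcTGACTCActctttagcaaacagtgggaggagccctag
Cav2, chr6:17281063-17281129, plus strand: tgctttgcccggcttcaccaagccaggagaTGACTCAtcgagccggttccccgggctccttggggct
Gbp2, chr3:142620531-142620597, plus strand: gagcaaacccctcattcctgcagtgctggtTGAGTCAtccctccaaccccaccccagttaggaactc

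The match began 69 bases before the start in Plaur, 92 in Cav2 and 102 in Gbp2. None of the 3 windows touches an annotated exon. The CArG box, the site of serum response factor, was searched in addition after the data were seen, and it was found in promoters of Egr2 and Cited1 only among the members. Egr2 has several annotated starts, most of whose windows overlap, and they are all but 1 of the 5 matching promoters (7.35%, against 1.17% of promoters of genes with the mean count). The CArG box begins 72 bases before the start in the Egr2 window and 45 in that of Cited1. Both windows are given with the CArG box in capitals.
Egr2, chr10:67537767-67537836, plus strand: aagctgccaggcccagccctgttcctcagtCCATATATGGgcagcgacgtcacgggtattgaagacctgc
Cited1, chrX:102252187-102252256, minus strand: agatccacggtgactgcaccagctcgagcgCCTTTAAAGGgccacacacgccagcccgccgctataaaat

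The cyclic AMP element TGACGTCA was found in 1 of the 68 member promoters (1.47%). It was in 2.71% of promoters of genes with the mean count and 1.55% of all promoters. The member promoter is that of Epha2, where the element is in capitals.
Epha2, chr4:141301158-141301220, plus strand: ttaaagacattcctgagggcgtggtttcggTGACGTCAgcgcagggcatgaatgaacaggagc

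The shares of the other motifs searched were as follows. The E-box CAGCTG stood in 19.1% of member promoters and 11.7% of those of genes with the mean count, and the GC box GGGCGG in 69.1% and 57.2%. ACAAAG, the core of SOX sites, was found in 7.35% and 12.2%, TTCNNNGAA in 2.94% and 5.63%, and TATAAA in 13.2% and 6.45%. The ETS letters ACCGGAAGT were found in 0 of 68 member promoters and in 1.62% of the background, and the palindromic NFI site in 0 and 0.00850%. The median GC content of the windows was 61.6% for members and 60.0% for the genes with the mean count. A match shows only that these letters are there.

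Intracellular signalling, cytoskeletal and membrane proteins made up 10 members. Trim9, a brain-enriched ubiquitin ligase that acts on axon branching, had the largest difference of the 77 in its weaker pair. It had 104, 173, 6 and 8 counts, with differences of -3.89 and -4.58 and levels of 48.3 ± 26.0 CPM and 1.93 ± 0.532 CPM (SD, n = 2 each). Plce1, a phospholipase C activated by RAS, had 291, 40, 39 and 5 counts, so neuron replicate 1, at 10.1 CPM, came close to proliferating replicate 2 at 15.4 CPM. Tns1, a focal adhesion protein linking integrins to actin, had 58, 113, 3 and 24 counts. The remaining members were Rin1, a RAS effector; Rhoj, a CDC42-like GTPase; Gsn, the actin-severing protein gelsolin; Gas7, a growth arrest protein of neurites; Cav2, a caveolin; Cpne2, a calcium-dependent membrane-binding copine; and Ahnak2, a large scaffold protein. These 7 had 22 to 61 counts in the proliferating libraries and 1 to 12 in the neuron libraries.

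Channels and transporters were represented by 4 genes, of which Mlc1 and Kcnj16 are best known from glia. Mlc1, an astrocyte end-foot membrane protein, had 83, 28, 12 and 7 counts. Kcnj16, an inward rectifier potassium channel subunit, had 26, 19, 3 and 0 counts, a ratio of 18.1 with a 95% exact counting interval of 5.80 to 90.9. Slco3a1, an organic anion transporter, had 9, 36, 0 and 3 counts. Sfxn3, a mitochondrial serine carrier of the sideroflexin family, had 89, 198, 17 and 42 counts, and its differences of -2.41 and -2.60 were alike although replicate 2 was higher in both groups. Of 44 ion channel genes in a list, 25 had the mean count and Kcnj16 alone met the rule, which 0.726% of all genes did. In both pairs 8 of the 25 were lower and 3 higher, where 31.9% and 20.8% of all 12392 genes were. The list medians were -1.18 in pair 1 and 0.48 in pair 2.

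Metabolic enzymes among the members numbered 6. Car2, carbonic anhydrase 2, had 21, 108, 2 and 2 counts, with differences of -2.68 and -5.29. Acsbg1, an acyl-CoA synthetase known from brain and glia, had 65, 69, 9 and 3 counts. The mitochondrial acetyl-CoA synthetase Acss1 had 44, 23, 10 and 2 counts. Pdxk, which makes pyridoxal phosphate, had 129, 257, 33 and 68 counts, and 39.0% of its exon bases lie opposite an antisense gene. The thiosulfate sulfurtransferase Tst and the peptidylarginine deiminase Padi2 each had 2 and 1 counts in the neuron libraries, against 41 and 14 counts for Tst and 52 and 11 for Padi2 in the proliferating ones. In the lipid and sterol list, Acsbg1 was the only gene of 25 with the mean count that met the rule, which 0.726% of all genes did. Of these 25, 15 were lower and 3 higher in both pairs, where 31.9% and 20.8% of all 12392 genes were.

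Genes of nucleic acid handling were all higher in proliferating replicate 1 than in proliferating replicate 2. Dclre1a, a nuclease of DNA crosslink repair, had 271, 92, 26 and 16 counts, or 56.7 ± 30.1 CPM and 5.69 ± 1.51 CPM (SD, n = 2 each). Henmt1, a methyltransferase of small RNAs in germ cells, had 30, 10, 5 and 2 counts. The single noncoding member was n-TAagc18, an alanine tRNA gene, with 56, 22, 10 and 3 counts. Alanine tRNA genes have near-identical copies and the treatment of reads with several matches is not given in the sources used here, so that value is uncertain.

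The last 7 genes belong to no common role. Ndrg2, a differentiation-associated gene of astrocytes, had 199, 195, 45 and 39 counts, and its replicates were close in both groups at 66.2 ± 12.6 CPM and 11.5 ± 0.297 CPM (SD, n = 2 each). Lhfp, a tetraspan membrane protein gene, had 116, 67, 21 and 13 counts. Gbp2, an interferon-induced guanylate binding protein with several close relatives, had 19, 36, 1 and 2 counts. Vwa5a had the largest pair 1 difference of the 77, -4.43, on 55, 21, 1 and 4 counts. Fam189a2 and Abtb2 had 27 to 92 counts in the proliferating libraries and 6 to 19 in the neuron libraries. Lenep had 31, 5, 4 and 0 counts, and 99.1% of its exon bases are shared on the same strand with Flad1. Flad1 had 164, 48, 43 and 63 counts, a difference of -2.03 in pair 1 and -0.022 in pair 2, so the 2 genes cannot be told apart in pair 1.

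The proliferating libraries disagreed with each other by more than the neuron libraries did. The median absolute difference between the 2 proliferating libraries was 1.07 on the log2(CPM + 0.5) scale over the 77 genes and 0.70 over all 12392, and between the 2 neuron libraries it was 0.74 and 0.46. The level was higher in proliferating replicate 2 than in replicate 1 for 48 of the 77 genes (62.3%), against 38.9% of all genes. By 2 or more on the log2 scale, 5 genes were higher in replicate 2 (Vgf, Olig2, Car2, Slco3a1 and Clcf1) and 4 in replicate 1 (Vcam1, Ccdc80, Plce1 and Ednrb). For Vgf that difference was 5.78, so its proliferating level of 240 ± 327 CPM (SD, n = 2) has a spread larger than its mean. At the other end, the proliferating libraries were within 0.1 of each other for Kcnj16, Col5a1, Prrx2 and Plaur.

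**Figure D3:**
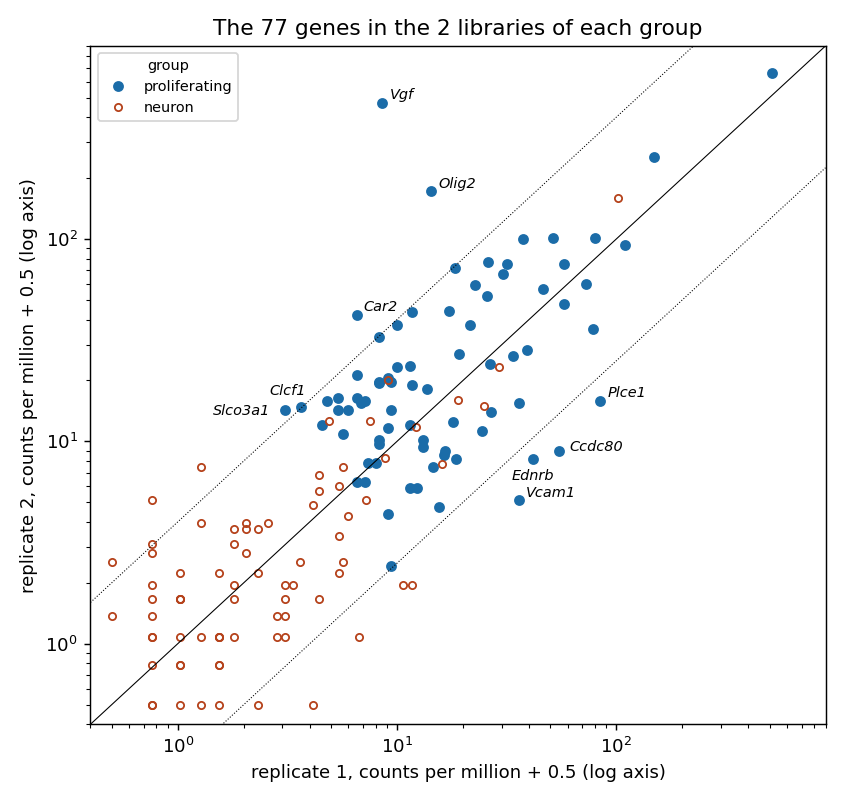
CPM + 0.5 in replicate 2 (y axis) against replicate 1 (x axis), both on log axes, for the 77 genes in proliferating (filled blue) and neuron (open red) libraries; the solid line marks equal levels and dotted lines a 4-fold difference. The named genes differ by 4-fold or more on the log2(CPM + 0.5) scale between the proliferating libraries, 5 above and 4 below.

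Depth limits many of these values. A mean count under 20 was found for 28 of the 77 genes and one of at least 50 for 24. In neurons, 10 genes had a summed count of 3 or less and 9 were listed at 0 in 1 of the 2 libraries, while 0 were listed at 0 in both. Because the mean over all 4 libraries had to reach 10, a gene with few neuron counts could enter only through its proliferating counts. Just inside the limits were Col16a1, Dll4 and Abtb2, with weaker pairs of -2.003, -2.003 and -2.01. Just outside were Mt2 (36, 66, 8 and 21 counts, weaker pair -1.98), Sfxn5 (132, 51, 33 and 16 counts, -1.98) and Srgap1 (57, 45, 4 and 14 counts, -1.97).

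Markers of several cell types differed between the groups beside these genes. The summed level of 15 astrocyte markers was 920 and 768 CPM in the proliferating libraries and 406 and 247 CPM in the neuron libraries. Of the 11 with the mean count, 8 were lower and 0 higher in both pairs, where 31.9% and 20.8% of all 12392 genes were. Mlc1 and Fgfr3 belong to that list, and Gja1 and Gjb6 were listed at 0 in all 4 libraries. For 12 oligodendrocyte lineage markers, Olig2 included, the sums were 91.8 and 359 CPM against 82.6 and 52.9 CPM, with Mag and Gpr17 listed at 0 in all libraries and Sox10 at 2, 0, 2 and 1 counts. Fibroblast and mesenchyme markers summed to 363 and 228 CPM against 153 and 150 CPM. Fn1 alone had 300 and 87.5 CPM of these sums against 73.2 and 65.9 CPM, while Col1a2, Dcn, Pdgfrb and Postn were listed at 0. Schwann and satellite glia markers, with Egr2 among them, summed to 19.6 and 30.4 CPM against 5.45 and 9.82 CPM. Endothelial and pericyte markers summed to 13.2 and 70.9 CPM against 9.61 and 4.91 CPM. Of these, Cspg4 alone, which is also in the oligodendrocyte list, had 8.63 and 64.7 CPM against 7.27 and 3.76 CPM. Macrophage markers summed to 4.89 and 2.31 CPM against 4.41 and 2.02 CPM. Radial glia and progenitor markers summed to 1785 and 4481 CPM against 1469 and 819 CPM, of which Vim alone had 908 and 2673 against 727 and 562 CPM. Of the 9 in that list with the mean count, 4 were lower and 0 higher in both pairs. Otic supporting cell markers summed to 381 and 416 CPM against 290 and 171 CPM. Hair cell markers summed to 87.5 and 54.7 CPM against 15.6 and 66.2 CPM, of which Myo6 had 73.7 and 46.6 against 14.0 and 35.2 CPM. The part of these cell types in the differences was not tested. In such bulk libraries, fewer cells of a type and less RNA per cell cannot be told apart.

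**Figure D4:**
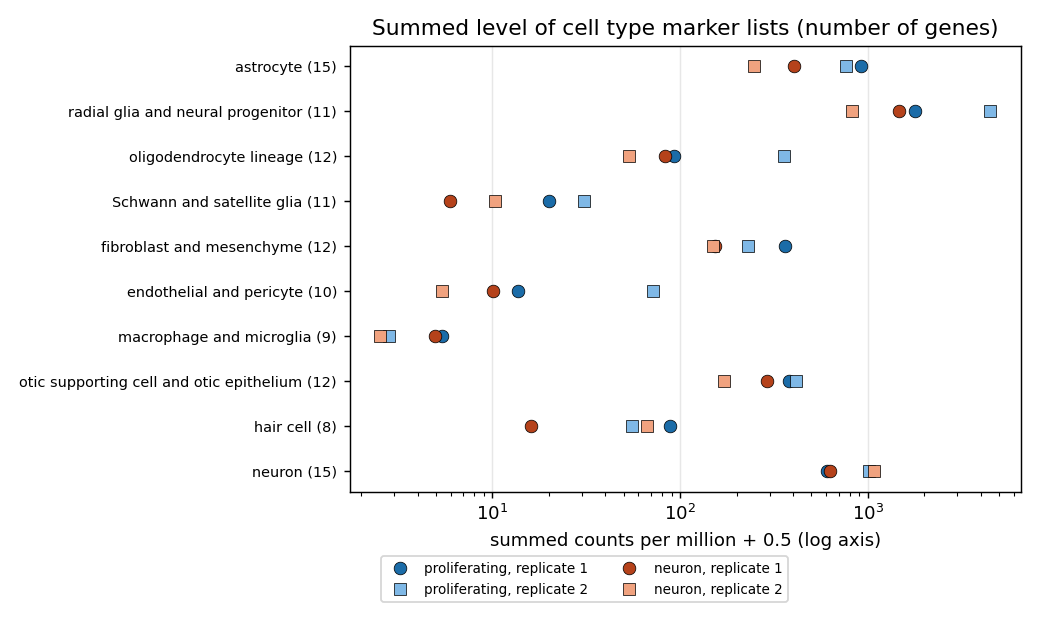
Summed CPM + 0.5 on a log axis for 10 lists of cell type markers in each library, with the number of listed genes in parentheses. Both proliferating libraries lie above both neuron libraries for the astrocyte, radial glia, Schwann and fibroblast lists among others, whereas the neuron list overlaps between the groups. Most of the fibroblast sum in proliferating replicate 1 was Fn1.

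The members were mostly protein-coding and lay on many chromosomes. Protein-coding genes were 76 of the 77 (98.7%), against 85.0% of the 12392 genes. Their median exon length was 4393 bases against 4601. The members lay on all autosomes but 18 and on X, with 9 among the 974 tested genes of chromosome 2 and 8 among the 408 of chromosome 19. In 6 cases a pair of members lay within 1 Mb. The closest were Dclre1a (chr19:56529161-56548284) and Adrb1 (chr19:56722117-56725150), 193 kb apart. Nhlrc2, the measured gene between them, had 251, 134, 240 and 172 counts and differences of -0.21 and -0.055. Cpne2 and Cx3cl1 lay 239.5 kb apart on chromosome 8, and the 5 measured genes between them had a median difference of 0.086 in pair 1 and -0.82 in pair 2.

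In edgeR's quasi-likelihood test with Benjamini-Hochberg adjustment, 0 of 12783 genes (0%) were called lower in neurons, among them 0 of the 75 members that passed its filter, with 321 genes lower at an unadjusted p under 0.05. DESeq2 called 47 genes lower (0.368%), 21 of them members. Without its gene filter edgeR called 122 (0.472%), 51 of them members. These counts use the contrast that chose the members and are given as background. The edgeR median log2 fold change of the 75 members was -3.15. For single members the edgeR log2 fold change was -2.34 with SE 0.50 for Egfr, -2.08 with SE 0.51 for Ncan and -3.72 with SE 0.81 for Egr2, and for Vgf it was -6.69 with SE 1.81. Each SE here is the absolute log2 fold change divided by the square root of the quasi-likelihood F statistic.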

How the data were processed

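Gene expression was measured in 4 stranded RNA-seq libraries after ribosomal RNA depletion, 2 of proliferating iMOP cells and 2 of iMOP-derived neurons. Each library has a table of raw counts by gene symbol and a table of RPKM, both deposited by the authors. Per the submitters' processing notes, the build was mm10 and the tools included HISAT2, SAMtools, featureCounts, DESeq2 and deepTools 3.4.3. The settings, the use of strand, the annotation and the treatment of reads with several matches are not given in the sources used here. The deposited RPKM values equal the counts divided by the library total, 18S row included, and by 1 length per gene.

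Groups and replicate numbers came from the sample titles. The 18S row Rn18s-rs5 was left out of the library totals behind CPM values. In replicate 1 it held 53.3% of counts in the proliferating library and 59.4% in the neuron library. In replicate 2, whose titles carry the words set 2, it held 75.0% and 76.1%. It stayed in the library totals used by the edgeR fits and by their gene filter. The members, their roles and the gene lists were chosen with earlier results of these data known. By the naming rule, values in each library were for members in a list, the 12 with the highest summed proliferating count, the 10 with the largest weaker pair and the 3 nearest the limit on each side. The other members' values, and Mki67, Nhlrc2, Flad1 and Mybph, were added after values were seen. The pair differences have no test, and 2 libraries against 2 allow no two-sided exact p under 0.333.

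All genes were fitted with edgeR 4.0.16 in R 4.3.3 (TMM, filterByExpr with minimum count 10 and minimum total 15, group as the only term, adjusted p under 0.05). DESeq2 1.42.0, limma 3.58.1, other scalings, filters and pseudocounts, the replicate block and leaving out libraries were alternatives. Exon lengths and overlaps are from GENCODE M21. Methods were tested on simulated counts. Python 3.11.15, pandas 2.3.3 and scipy 1.17.1 were used.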

Additional observations from a re-analysis of the deposited data

How the results depend on the processing

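The number of genes meeting the limits in both pairs, 77 without those set aside, was 52 with a pseudocount of 1 CPM, 62 with TMM or with RLE scaling and 91 without the mean count limit. It was 21 with a pseudocount of 2 CPM, 24 with a mean count of at least 50, 43 with the 18S row in the total, 37 with log2(RPKM + 0.1), 357 with a limit of -1 and 7 with a limit of -3. With only 1 pair required it lay between 277 and 368. TMM scaling moved the median of all genes in pair 1 from -0.19 to -0.013, and 15 of the 77 missed the limit there, Egfr, Plat, Serpine2, Vgf and Glis3 among them. Under all 6 alternatives of pseudocount, scaling and unit, 9 members still met it: Acsbg1, Adrb1, Bhlhe40, Ccn1, Cst3, Fos, Lhfp, Ncan and Nptx1. Under none of the 6 did 7 members meet it: Abtb2, Col5a1, Hs3st3b1, Igfbpl1, Plaur, Vgf and Zfp469. The members' median log2 fold change of -3.15 was -3.34 with library size alone, a total that held the 18S row. It was -0.64 with log2(RPKM + 1) and -2.17 with log2(RPKM + 0.1), scales that understate low levels. Leaving out 1 library gave -3.34 to -2.65, the latter without proliferating replicate 2. The replicate block left that median at -3.16. The labels tie same-numbered libraries by number, and those of replicate 2 also by the words set 2. The deviations of same-numbered libraries from their group means correlated with r = 0.33 across 12783 genes. No member changed direction under the 822 single values tried. This was largely set by the choice of members, which used the same contrast in the same libraries. Of the 822 values, 296 moved by more than the spread between the pairs. The log2 fold change of Ccdc80, for example, was -3.04 with all libraries and -1.43 without proliferating replicate 1.

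Genes called over the whole table were 0 in each direction in edgeR. With library size alone, ribosomal row included, 2 were lower, and with the replicate block 3. With log2(RPKM + 1) 1 was lower and with log2(RPKM + 0.1) 2. Dropping the gene filter gave 41 higher and 122 lower. DESeq2 gave 12 higher and 47 lower and left 248 adjusted p-values as not given. Leaving out 1 library, chosen after seeing the data and with the lone library assumed to vary like the other group, gave 29 higher and 84 lower without proliferating replicate 1, 3 and 36 without proliferating replicate 2, 7 and 23 without neuron replicate 1, and 7 and 11 without neuron replicate 2, so 3 to 29 higher and 11 to 84 lower against 0 with all 4. The cause of these differences was not tested. Of the members, 51 were among the genes called lower without a filter.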
